A study of Mus musculus with 6 samples.

Results

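The genes described here are 10 members of the transforming growth factor beta (TGF-beta) system, taken by symbol from the 15845 genes of the count table. They are the ligands Tgfb1 and Tgfb3, the receptors Tgfbr1, Tgfbr2 and Tgfbr3, the latent TGF-beta binding proteins Ltbp1, Ltbp3 and Ltbp4, and the anchors of latent TGF-beta on the cell surface, Lrrc32 and Nrros. The cells were bone marrow LSK cells, which lack lineage markers and carry Sca1 and c-Kit, and which comprise blood stem cells and multipotent progenitors. All mice were C57BL/6 of genotype Mx1Cre; Jak2VF/VF, homozygous for the activating Jak2 V617F change found in myeloproliferative neoplasms, with a Cre recombinase under the interferon-responsive Mx1 promoter, which is active in blood cells and in other tissues. The 3 vehicle libraries came from mice given PBS, and the 3 TP-3654 libraries from mice given that PIM kinase inhibitor at 150 mg/kg/day. Treatment lasted 6 weeks in both groups. No wild-type group is among the 6 libraries, so every comparison lies within mutant mice. The labels used here state no age. The design text calls the libraries biological replicates.

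TGF-beta ligands are secreted as latent complexes, in which the mature dimer stays wrapped in its own propeptide and is held by a binding protein of the matrix (the LTBP family) or of the cell surface (GARP, encoded by Lrrc32, and its relative encoded by Nrros). Integrins and proteases release the ligand, which binds the type II receptor (Tgfbr2). That receptor recruits and phosphorylates the type I receptor (Tgfbr1), which phosphorylates SMAD2 and SMAD3. In bone marrow, TGF-beta is known for holding stem cells in quiescence and, when megakaryocytes release it in excess, for a part in marrow fibrosis.

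Library totals ran from 20582057 to 25315596 counts, and 3 counts corresponded to 0.116 to 0.153 CPM (the usual count scaled to library size, here with TMM, a correction for differences in library composition). The sort markers Kit and Ly6a (Sca1) were present in every library, with summed levels of 405 to 444 CPM in vehicle and 497 to 649 CPM in TP-3654 libraries. Cd3e, Cd8a and Ms4a1, which mark T and B cells, had at most 3 counts in any library. Tested stem cell markers were higher at an unadjusted p under 0.05 in 8 of 14 cases and lower in 0. Granulocyte-monocyte progenitor markers were lower in 10 of 12 and higher in 0. Of all tested genes 10.2% were higher and 6.84% lower at that level. The summed level of the 12 granulocyte-monocyte progenitor markers was 12056 to 15330 CPM in vehicle and 3260 to 8864 CPM in TP-3654 libraries, and that of the 14 stem cell markers was 715 to 766 and 998 to 1469 CPM. Of the mast cell and basophil markers 4 of 8 tested were lower and 0 higher. Of the T, NK and innate lymphoid markers 4 of 7 were higher and 1 lower. The lower gene, Nkg7, had the highest level of that list (means of 246 CPM in vehicle and 165 CPM with TP-3654). That list summed to 255 to 307 CPM in vehicle and 178 to 270 CPM with TP-3654. Klrd1, among the higher genes, had 5 to 25 counts per library. Cd2, Cd3d, Cd3e and Cd3g had at most 7 counts in any library and were not tested. Vehicle replicate 1 stood apart from the other vehicle libraries in mature neutrophil and macrophage genes. S100a9 had 1021 counts there against 3 and 11, S100a8 had 990 against 10 and 10, Camp had 108 against 0 and 0, and C1qb had 363 against 23 and 18. In TP-3654 replicates 1 to 3, S100a9 had 14, 193 and 51 counts and S100a8 had 10, 238 and 22. Camp had 3, 14 and 5 counts there, and C1qb had 102, 121 and 161. TP-3654 replicate 3 was low in part of the erythroid genes. It had 115 counts of Klf1 against 1263 and 1195 in the other TP-3654 libraries, and 107 of Epor against 718 and 651. Hba-a1 (6492 against 9098 and 3045) and Alas2 (169 against 411 and 81) lay between those libraries instead. TP-3654 replicate 3 also had the lowest Tgfb1, Ltbp1, Tgfbr3, Nrros and Lrrc32 of the 6 libraries, and the highest Ltbp3, Tgfbr2 and Tgfbr1. Without vehicle replicate 1 the log2 fold changes were 0.92 for Ltbp3, 1.09 for Ltbp4, 0.43 for Tgfbr2, -0.57 for Tgfb1 and -0.53 for Tgfbr3. Without TP-3654 replicate 3 they were 0.69, 1.31, 0.32, -0.35 and -0.33 in the same order, with Tgfbr3 alone of the 5 above an unadjusted p of 0.05. The part of these shifts in the results that follow was not tested. In bulk libraries, fewer cells of a type and less RNA per cell cannot be told apart.

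In brief, the binding protein gene Ltbp3 stood 1.79-fold higher and the ligand gene Tgfb1 stood 1.40-fold lower with TP-3654, each without overlap between groups. The receptor gene Tgfbr2 was 1.35-fold higher and the co-receptor gene Tgfbr3 1.35-fold lower. Of the 10 genes, 9 passed the filter on low counts. In the edgeR quasi-likelihood test 0 of these 9 had an adjusted p under 0.05 (Benjamini-Hochberg over the 13149 genes tested), where 0% of all genes did. At an unadjusted p under 0.05 there were 5, namely Ltbp3, Ltbp4 and Tgfbr2 higher and Tgfb1 and Tgfbr3 lower. Of all tested genes 17.1% reached that level, 10.2% higher and 6.84% lower. Without vehicle replicate 3 only Ltbp3 and Ltbp4 reached it, and without any other single library 4 or 5 did. The TP-3654 and vehicle libraries did not overlap for 4 of the 9, with Ltbp3, Ltbp4 and Tgfbr2 higher and Tgfb1 lower. The same held for 25.9% of all tested genes, 14.3% higher and 11.6% lower. The median log2 fold change of the 9 was 0.36 and that of all tested genes was 0.015. Without TP-3654 replicate 1 the median of the 9 was 0.060.

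**Figure D1:**
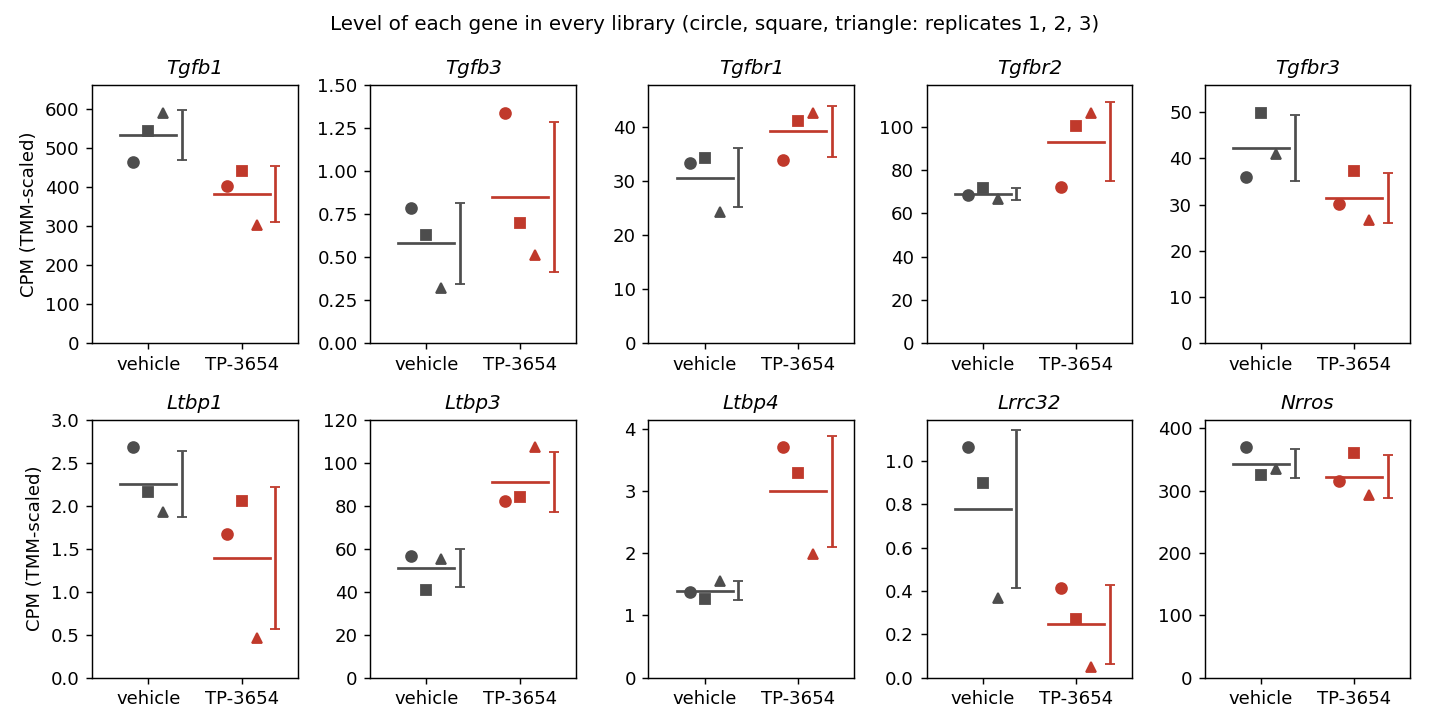
Each panel plots the TMM-scaled CPM of 1 gene in every library on a linear axis from 0, for vehicle (grey) and TP-3654 (red), with replicates 1, 2 and 3 as circle, square and triangle, the group mean as a line and the SD (n = 3) as a bar. Ltbp3, Ltbp4 and Tgfbr2 lay higher and Tgfb1 lower in all TP-3654 libraries, without overlap with vehicle, and the other 6 genes overlapped.

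Tgfb1 (Entrez 21803, chromosome 7, 25687002 to 25705077, GRCm38) encodes the isoform made by most blood cells. Its level was 463, 544 and 591 CPM in vehicle replicates 1 to 3 and 402, 442 and 301 CPM in TP-3654 replicates 1 to 3. All 3 TP-3654 libraries lay below the lowest vehicle library, narrowly so for TP-3654 replicate 2, and TP-3654 replicate 3 was the lowest. The group means were 533 ± 64.5 CPM in vehicle and 382 ± 72.2 CPM with TP-3654 (SD, n = 3). The log2 fold change was -0.48 (SE 0.16, edgeR adjusted p = 0.199). On the same counts DESeq2 gave -0.50 (adjusted p = 0.0694), and the authors' deposited table lists -0.38 (deposited adjusted p = 0.0953). Without TP-3654 replicate 3 the log2 fold change was -0.35, and the unadjusted p was above 0.05 only without vehicle replicate 3 (unadjusted p = 0.0687). Tgfb3 (Entrez 21809, chromosome 12, 86056743 to 86079041), the second ligand, had 7 to 29 counts per library. Its levels of 0.321 to 0.788 CPM in vehicle and 0.511 to 1.34 CPM with TP-3654 overlapped (log2 fold change 0.54, SE 0.52, edgeR adjusted p = 0.591). The log2 fold change was 0.060 when TP-3654 replicate 1 was left out, 0.26 when vehicle replicate 3 was and 0.83 when vehicle replicate 1 was. Tgfb2, the remaining isoform, had 2 to 8 counts per library and did not pass the filter.

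Of the 3 LTBP genes described here, Ltbp3 (Entrez 16998, chromosome 19, 5740900 to 5758536) had the highest level per kilobase of exon in both groups. LTBP3 binds the latent ligand inside the cell and aids its secretion. Its gene stood at 56.7, 40.8 and 55.2 CPM in vehicle replicates 1 to 3 and at 82.1, 84.0 and 107 CPM in TP-3654 replicates 1 to 3. Every TP-3654 library lay above every vehicle library, and the gap between the groups was wider than the range within vehicle. The means were 50.9 ± 8.79 and 91.1 ± 14.0 CPM (SD, n = 3), a log2 fold change of 0.84 (SE 0.16, edgeR adjusted p = 0.0792). DESeq2 called it (log2 fold change 0.83, adjusted p = 0.00106), as it did 4.92% of the genes it gave an adjusted p. The authors' deposited table also lists it under 0.05 (log2 fold change 0.68, deposited adjusted p = 0.0361), as it does 5.32% of its genes. It was the only 1 of the 10 genes under 0.05 in either. The log2 fold change ran from 0.69 to 0.92 when each library was left out in turn, with an unadjusted p under 0.05 each time and an edgeR adjusted p of 0.0855 to 0.299.

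Ltbp4 (Entrez 108075, chromosome 7, 27305140 to 27339720), whose product is better known for elastic fibre assembly, was low. It had 35, 28 and 34 counts in vehicle replicates 1 to 3 and 80, 85 and 39 counts in TP-3654 replicates 1 to 3. In CPM this was 1.38, 1.26 and 1.56 against 3.70, 3.29 and 1.99, so the groups did not overlap and TP-3654 replicate 3 lay closest to vehicle. The log2 fold change was 1.10 (SE 0.34, edgeR adjusted p = 0.178), and without TP-3654 replicate 1 it was 0.92 (unadjusted p = 0.051). Ltbp1 (Entrez 268977, chromosome 17, 75005480 to 75392512) stood at 1.92 to 2.68 CPM in vehicle and at 1.67, 2.05 and 0.460 CPM in TP-3654 replicates 1 to 3. These groups overlapped (log2 fold change -0.68, SE 0.49, edgeR adjusted p = 0.479), and the lowest value was that of TP-3654 replicate 3. Leaving that library out gave -0.29, and leaving out TP-3654 replicate 2 gave -1.08 (log2). Ltbp2 was counted 0 to 15 times per library and was not tested.

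The surface anchors differed widely in level. Nrros (Entrez 224109, chromosome 16, 32142785 to 32165594), whose product presents latent TGF-beta 1 on myeloid cells and microglia, stood at 369, 325 and 335 CPM in vehicle replicates 1 to 3. It stood at 315, 359 and 293 CPM in TP-3654 replicates 1 to 3. The groups overlapped, and the log2 fold change of -0.090 (SE 0.12, edgeR adjusted p = 0.707) was smaller than its error. It ran from -0.18 without TP-3654 replicate 2 to -0.036 without TP-3654 replicate 3 or vehicle replicate 1. Lrrc32 (Entrez 434215, chromosome 7, 98489305 to 98501831) encodes GARP, the anchor of regulatory T cells and platelets. It had 27, 20 and 8 counts in vehicle replicates 1 to 3 and 9, 7 and 1 in TP-3654 replicates 1 to 3, and it did not pass the filter. Fitted without a filter, its log2 fold change was -1.63 (SE 0.70, edgeR adjusted p = 0.303), and the groups overlapped at 0.367 CPM in vehicle replicate 3 and 0.416 CPM in TP-3654 replicate 1. Foxp3, which defines regulatory T cells, had 0 to 7 counts per library. The 6 regulatory T cell markers summed to 51.1 to 54.1 CPM in vehicle and 63.3 to 77.8 CPM with TP-3654. Of the 3 tested, 2 were higher at an unadjusted p under 0.05, as were 10.2% of all tested genes. Ikzf2 (means of 40.7 and 53.8 CPM) and Tnfrsf18 (10.8 and 15.6 CPM) made up most of that sum, while Cd4 had a log2 fold change of -0.11 and Il2ra and Ctla4 had at most 18 and 19 counts in any library. The sum is therefore no measure of regulatory T cells. The 12 megakaryocyte and platelet markers summed to 544 to 562 CPM in vehicle and 624 to 655 CPM with TP-3654. Of the 11 such markers tested, 2 were higher and 1 lower at an unadjusted p under 0.05, with Gp6 at 0 to 12 counts. The shares over all tested genes were 10.2% higher and 6.84% lower. The part of these cells in the Lrrc32 and Tgfb1 levels was not tested.

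Of the receptors, Tgfbr2 (Entrez 21813, chromosome 9, 116087695 to 116175363), the type II kinase that binds the ligand, was higher with TP-3654. It stood at 68.5, 71.7 and 66.5 CPM in vehicle replicates 1 to 3 and at 72.4, 101 and 107 CPM in TP-3654 replicates 1 to 3. The groups did not overlap, but TP-3654 replicate 1 lay only just above the highest vehicle library. The means were 68.9 ± 2.64 and 93.2 ± 18.3 CPM (SD, n = 3), a log2 fold change of 0.44 (SE 0.15, edgeR adjusted p = 0.201). The authors' deposited table gives 0.38 with a deposited adjusted p of 0.0501. Without TP-3654 replicate 1 the log2 fold change was 0.59 (edgeR adjusted p = 0.112), and without TP-3654 replicate 2 it was 0.38 (edgeR adjusted p = 0.306). Its unadjusted p was above 0.05 without TP-3654 replicate 2 or vehicle replicate 3. Tgfbr1 (Entrez 21812, chromosome 4, 47353222 to 47414926), the type I kinase that signals to the SMADs, stood at 33.4, 34.2 and 24.3 CPM in vehicle replicates and at 33.9, 41.1 and 42.7 CPM in TP-3654 replicates 1 to 3. These groups overlapped at TP-3654 replicate 1 (log2 fold change 0.36, SE 0.17, edgeR adjusted p = 0.31). For Tgfbr1 the log2 fold change was 0.22 (unadjusted p = 0.179) when vehicle replicate 3 was left out and 0.45 (unadjusted p = 0.0349) when TP-3654 replicate 1 was. The read ratio of Tgfbr2 to Tgfbr1 within a library was 2.05 to 2.74 in vehicle and 2.14 to 2.50 with TP-3654, so it overlapped as well.

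Tgfbr3 (Entrez 21814, chromosome 5, 107106567 to 107289629) encodes betaglycan, the co-receptor that presents ligand to the type II receptor. It stood at 35.9, 49.9 and 40.9 CPM in vehicle replicates 1 to 3 and at 30.1, 37.3 and 26.7 CPM in TP-3654 replicates 1 to 3. TP-3654 replicate 2 lay above vehicle replicate 1, so the groups overlapped. The log2 fold change was -0.43 (SE 0.17, edgeR adjusted p = 0.259), and -0.31 (unadjusted p = 0.131) without vehicle replicate 2. Its unadjusted p was also above 0.05 without vehicle replicate 3, TP-3654 replicate 1 or TP-3654 replicate 3.

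**Figure D2:**
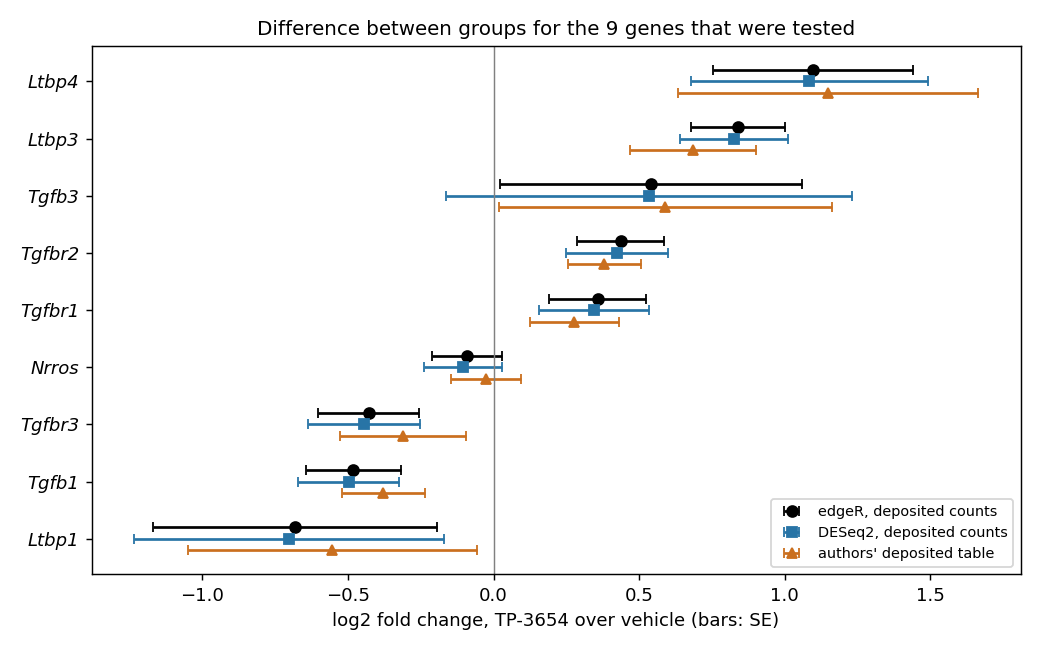
The log2 fold change of TP-3654 over vehicle (x axis, bars show the SE) is drawn for the 9 tested genes from edgeR and DESeq2 on the deposited counts and from the authors' deposited table. The 3 estimates had the same sign for each gene, and that of Ltbp3 was 0.84, 0.83 and 0.68.

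Scaling moved these directions in none of the alternatives run for the 9 genes. The ratio of Ltbp3 to Tgfb1 reads within a library does not depend on any scaling. It was 12.2%, 7.50% and 9.34% in vehicle replicates 1 to 3 and 20.4%, 19.0% and 35.6% in TP-3654 replicates 1 to 3. The groups did not overlap, and TP-3654 replicate 3, with the lowest Tgfb1, was the highest. This pair was set against each other after its values were seen, and the ratio is given as a description with no test. For Nrros against Tgfb1, 59.8% and 56.7% in vehicle replicates 2 and 3 lay below the 78.4% to 97.1% of TP-3654 libraries, while vehicle replicate 1 at 79.7% lay among them.

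Levels of different genes were compared per kilobase of annotated exon. In vehicle libraries Tgfb1 was highest at 106 ± 12.8 CPM per kilobase (SD, n = 3), followed by Nrros at 82.2 ± 5.54, with ranges that did not overlap. With TP-3654 the pair stood at 75.7 ± 14.3 and 77.2 ± 8.15 CPM per kilobase, and their ranges overlapped. A middle tier in vehicle held Tgfbr2 (8.42 ± 0.323), Tgfbr3 (6.46 ± 1.08), Ltbp3 (5.61 ± 0.969) and Tgfbr1 (4.69 ± 0.845 CPM per kilobase). Tgfbr2 lay apart from Tgfbr3 there, and the other neighbours overlapped. With TP-3654, Ltbp3 at 10.04 ± 1.54 overlapped Tgfbr2 at 11.4 ± 2.23 and lay apart from Tgfbr1 at 6.01 ± 0.719 CPM per kilobase, which overlapped Tgfbr3 at 4.79 ± 0.83. Ltbp4, Ltbp1, Tgfb3 and Lrrc32 formed the lowest tier, at group means of 0.0525 to 0.463 CPM per kilobase, with overlapping neighbours in both groups.

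**Figure D3:**
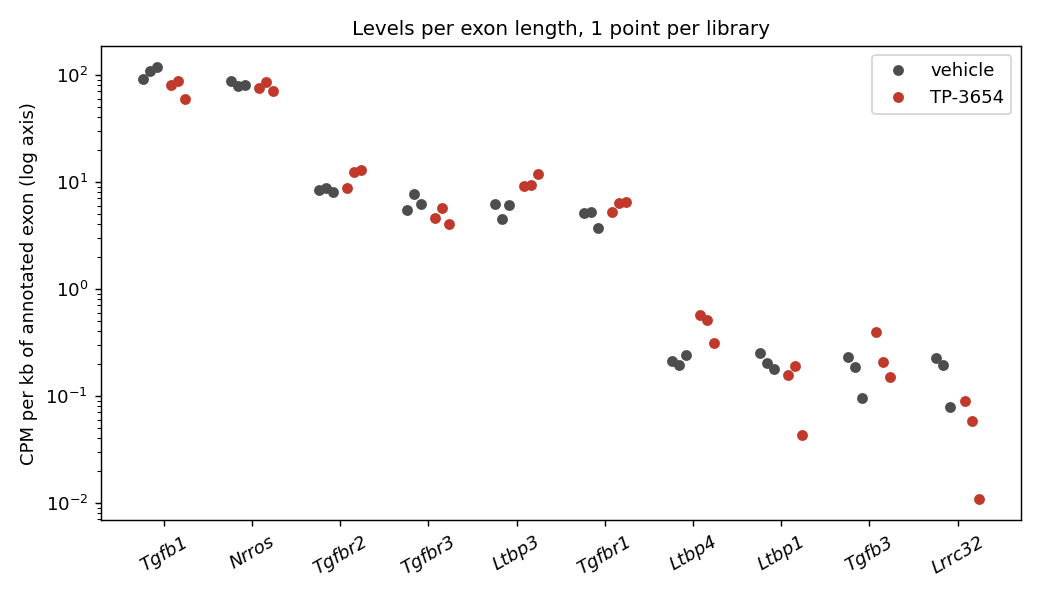
Each point is 1 library, with the level per kilobase of annotated exon on a log axis and the genes ordered by their vehicle mean. The genes fall into 3 tiers, and Ltbp3 with TP-3654 (10.04 ± 1.54 CPM per kilobase) reaches the level of Tgfbr2 (11.4 ± 2.23).

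Promoter sequence is shown for Tgfb1, which was lower, and for Ltbp3 and Tgfbr2, which were higher. These are the genes above 5 CPM whose groups did not overlap. Ltbp4, also higher without overlap, lay below that level, and its sequence is not shown. Each line gives the 250 bases before the RefSeq start on the gene's strand, 5′ to 3′ (GRCm38.p6), at chr7:25686752-25687001 (plus strand), chr19:5740650-5740899 (plus strand) and chr9:116175364-116175613 (minus strand). Capitals mark GC boxes, the letters GGGCGG on either strand.
Tgfb1: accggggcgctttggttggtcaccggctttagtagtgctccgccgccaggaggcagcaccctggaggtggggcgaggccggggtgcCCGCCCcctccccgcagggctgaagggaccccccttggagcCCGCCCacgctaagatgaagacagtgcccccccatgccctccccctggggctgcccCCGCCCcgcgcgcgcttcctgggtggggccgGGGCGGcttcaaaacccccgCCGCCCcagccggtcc
Ltbp3: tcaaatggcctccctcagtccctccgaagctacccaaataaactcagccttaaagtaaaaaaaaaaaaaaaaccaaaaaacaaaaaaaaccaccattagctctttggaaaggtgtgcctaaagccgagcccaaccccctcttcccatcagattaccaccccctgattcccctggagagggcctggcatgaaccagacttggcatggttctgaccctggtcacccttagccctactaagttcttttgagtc
Tgfbr2: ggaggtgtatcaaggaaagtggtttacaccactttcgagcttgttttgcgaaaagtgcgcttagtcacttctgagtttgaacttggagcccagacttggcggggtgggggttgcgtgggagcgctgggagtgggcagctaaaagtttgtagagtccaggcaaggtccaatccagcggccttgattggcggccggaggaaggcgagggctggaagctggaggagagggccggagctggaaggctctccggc
The Tgfb1 window held 5 GC boxes and 75.2% G and C, and those of Ltbp3 and Tgfbr2 held 0 boxes with 47.2% and 58.4% G and C. The RefSeq windows of Ltbp4 held 3, 5 and 7 boxes with 64.4%, 79.2% and 79.2% G and C. Those with 5 and 7 boxes share most of their bases. GC boxes were thus present before genes of both directions. Of all 32851 RefSeq windows of this length, 32.7% held at least 1 GC box and 8.47% at least 3, and the median share of G and C was 52.4%. The other motifs searched on both strands were TGANTCA (AP-1), TTCNNNGAA (STAT) and CAGACA (a SMAD element), which 6.75%, 7.02% and 17.1% of all windows held. None of the 3 windows shown held any of these letters. The bases just after the RefSeq starts of Ltbp3 and Tgfbr2 were not found in a GENCODE transcript of the gene, unlike those of Tgfb1, and start sites were not measured.

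The wider TGF-beta superfamily was described with 7 further gene lists. No gene of these lists had an edgeR adjusted p under 0.05. DESeq2, which called 4.92% of all genes, called 3 genes that release or anchor latent TGF-beta and 2 response genes. It also called 2 other receptors and 1 other ligand or antagonist. Among receptor regulators, SMADs and corepressors, and Tgfb2 with Ltbp2, it called 0. The counts that follow are from edgeR at an unadjusted p under 0.05, which 17.1% of all genes reached. Among genes that release or anchor latent TGF-beta, 3 were higher and 3 lower of 16 tested (median log2 fold change 0.0085). The metalloproteinase gene Bmp1, whose product can cleave LTBP1, stood at 15.8, 13.4 and 15.9 CPM in vehicle replicates 1 to 3 and 27.6, 23.6 and 33.7 CPM in TP-3654 replicates 1 to 3 (log2 fold change 0.91, SE 0.17, edgeR adjusted p = 0.0792). Mmp2, a gelatinase, averaged 3.63 ± 1.84 and 11.6 ± 3.38 CPM (log2 fold change 1.67, SE 0.37, edgeR adjusted p = 0.0917). The matrix crosslinking enzyme gene Tgm2 had a log2 fold change of 0.76 (edgeR adjusted p = 0.127), and Plau, the urokinase that generates plasmin, one of -1.05 (edgeR adjusted p = 0.189). These 4 were named for the smallest p of the list. Groups did not overlap for 6 of its 16 tested genes, 3 higher and 3 lower, against 25.9% of all tested genes.

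Downstream of the receptors, 3 of 13 SMAD and corepressor genes were higher and 0 lower (median 0.14). Smad3, a direct substrate of the type I receptor, stood at 77.6 to 78.4 CPM in vehicle and 89.3 to 109 CPM with TP-3654 (log2 fold change 0.35, SE 0.11, edgeR adjusted p = 0.178). Smad5, which serves BMP receptors, had a log2 fold change of 0.35 (edgeR adjusted p = 0.196), the corepressor Skil one of 0.37 (edgeR adjusted p = 0.288) and Smad4, the shared partner, one of 0.23 (edgeR adjusted p = 0.423). Of 24 receptor regulators, 2 were higher and 1 lower (median 0.070). They were the ubiquitin ligase genes Smurf1 (log2 fold change 0.49) and Wwp1 (0.44) and the endocytic adaptor gene Dab2 (-0.89), and the deubiquitinase Usp9x followed at 0.44 without reaching that level.

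Of 16 tested genes known to respond to TGF-beta in other cell types, 2 were higher and 1 lower (median 0.17). The list does not separate induced from repressed genes, so nothing is read from whether they share a direction. Klf10, an early TGF-beta induced transcription factor, stood at 40.8, 45.1 and 34.2 CPM in vehicle replicates 1 to 3 and 57.0, 65.0 and 61.0 CPM in TP-3654 replicates 1 to 3 (log2 fold change 0.61, SE 0.13, edgeR adjusted p = 0.0875). Skil, also in this list, was the other higher gene. Gadd45b, a stress-response gene, averaged 21.0 ± 2.66 and 11.5 ± 4.50 CPM (log2 fold change -0.86, SE 0.26, edgeR adjusted p = 0.173), and Bhlhe40 had a log2 fold change of 0.52 without reaching an unadjusted p under 0.05. Ccn2, a standard reporter of TGF-beta in other cells, had at most 5 counts in any library, and Smad7 had a log2 fold change of 0.063 (SE 0.19).

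Receptors for activins and BMPs were higher in 3 of 7 cases and lower in 0 (median 0.34). Acvr2b, a type II activin receptor gene, averaged 1.97 ± 0.788 CPM in vehicle and 5.90 ± 2.15 CPM with TP-3654 (log2 fold change 1.57, SE 0.39, edgeR adjusted p = 0.115). Its relative Acvr2a had a log2 fold change of 0.88 (edgeR adjusted p = 0.136) and the type I activin receptor gene Acvr1b one of 0.38 (edgeR adjusted p = 0.204), while Bmpr2 at 0.34 (edgeR adjusted p = 0.394) overlapped. Among the other ligands and antagonists, 2 of 7 tested were higher and 0 lower (median 0.30). Gdf11, a ligand of the activin receptors, stood at 0.766 to 1.24 CPM in vehicle and 2.61 to 2.86 CPM with TP-3654 (log2 fold change 1.40, SE 0.33, edgeR adjusted p = 0.105). Twsg1, which encodes a BMP-binding protein, had a log2 fold change of 0.30 (edgeR adjusted p = 0.262), and Fstl1 (0.68) and Bmp7 (0.60) did not reach an unadjusted p under 0.05.

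**Figure D4:**
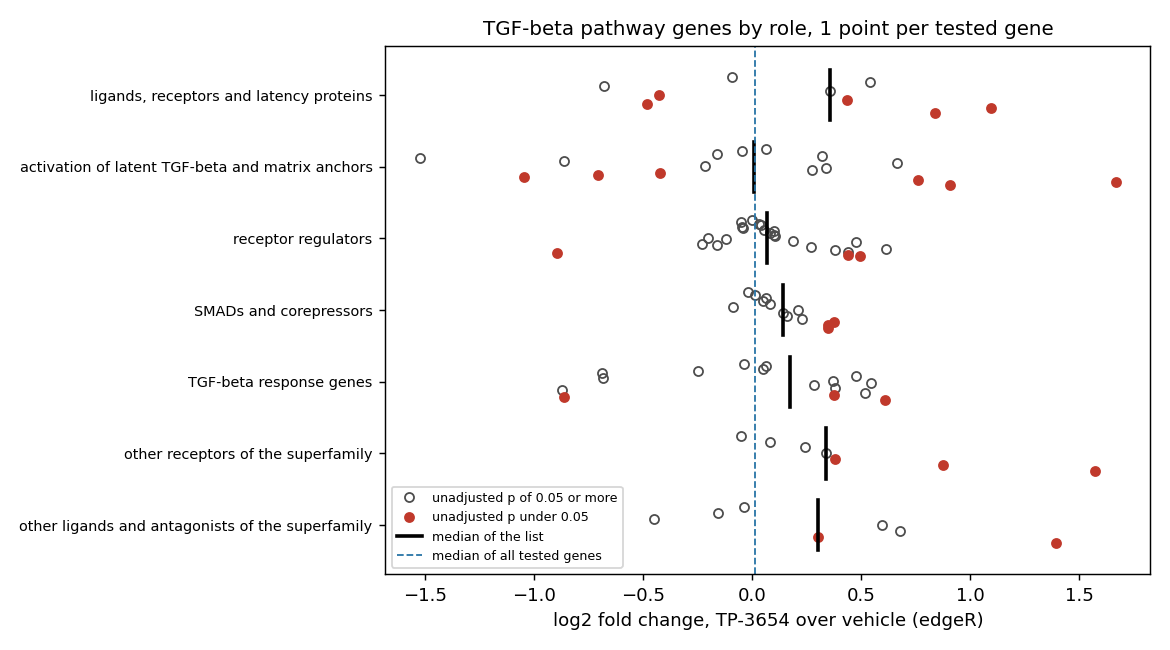
Each point is the edgeR log2 fold change of 1 tested gene, in rows by role, filled where the unadjusted p is under 0.05. Black bars mark list medians, of 0.36 for the ligands, receptors and latency proteins, and the dashed line marks the median of all tested genes (0.015).

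The genes whose log2 CPM followed these genes most closely over the 6 libraries were sought among 8480 genes of moderate or high level. For Tgfb1 they were Cstb, Tapbp and Tmbim6 (Pearson r of 0.995, 0.995 and 0.994). For Tgfbr1 they were Ubn1, Arid4b and Prkacb (0.994, 0.992 and 0.992), and for Tgfbr2 they were Usp3, Mdfic and Il1r1 (0.988, 0.979 and 0.978). These values describe 6 libraries that share the difference between groups, and with so many genes searched they carry no test.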

How the data were processed

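RNA-seq counts of 6 LSK libraries, 3 per group, were analysed. The authors deposited raw read counts, whole numbers for each Entrez gene. The submitters' processing notes name HISAT2 2.1.0, SAMtools 1.9.0, DESeq2 and the builds mm10 and GRCm38. Which counter, annotation and strand setting were used the sources used here do not say. Per the file headers, the authors' comparison holds the deposited signal (mean of counts divided by size factors), log2 fold change and its standard error, Wald score, and p-value and adjusted p-value. Its means were 0.88 of those computed from the counts at the median (0.745 to 1.01 from the 10th to the 90th percentile of 11213 genes with a mean over 50), so it did not come from an identical count table or fit, and its values are given as the authors' own.

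Counts were tested with edgeR 4.0.16 in R 4.3.3 (TMM, filterByExpr, robust quasi-likelihood F test, Benjamini-Hochberg over 13149 genes). SE is the absolute log2 fold change over the root of F. On simulated counts this test called 70 of 100 genes changed 2-fold and 98 of 100 changed 4-fold, at an adjusted p under 0.05. It called 16 of 12832 unchanged genes. Changes under 2-fold were not simulated. Alternatives were DESeq2 1.42.0, limma-voom (limma 3.58.1), other scalings, filters and a non-robust fit, a replicate block, and leaving out each library. Symbols came from the authors' table or RefSeq, which also gave positions and promoters (promoters for 7 of the 10 genes); exon lengths are from GENCODE M21, joined over isoforms. At most 9.96% of any of these genes' 31-mers occurred in transcripts of other genes, the highest share being that of Tgfb3. Named genes are the 10, up to 4 per further list with the smallest p, marker genes, and the 3 most similar patterns to Tgfb1, Tgfbr1 and Tgfbr2. Tgfb2, Ltbp2, Ccn2 and Smad7 and the ratios within a library fall outside that rule, being picked with their values in view. Members and lists were chosen with earlier results of these data known.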

Additional observations from a re-analysis of the deposited data

How the results depend on the processing

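Each of the 9 tested genes kept its direction under every alternative run. Members at an adjusted p under 0.05 numbered 0 in each alternative except DESeq2 (1, Ltbp3). Over all genes, edgeR called 0, with 2244 at an unadjusted p under 0.05, while DESeq2 called 657, limma-voom 0, the fit with no low-count filter 5, and the fits that left out 1 library 0 to 31. With the replicate number as a block 3 genes were called, and 5 members again had an unadjusted p under 0.05. The labels do not say that the numbers pair the mice, and deviations of same-numbered libraries correlated at -0.012, -0.015 and 0.031. Members at an unadjusted p under 0.05 numbered 2 to 5 when a library was left out. The members' median log2 fold change was 0.060 to 0.43 when a library was left out, and 0.14 with a mean CPM of at least 1, which removes Tgfb3. Of the further lists, leaving out 1 library gave 1 to 4 receptor regulators, 2 to 5 response genes and 1 to 3 ligands and antagonists at an unadjusted p under 0.05. Depth limits Tgfb3, Ltbp1, Ltbp4 and Lrrc32, with at most 85 counts in any library.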
